A study of Mus musculus with 12 samples.

Results

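Microglia and tissue macrophages were followed in mouse medulloblastoma (MB) and in granule neuron progenitors (GNPs) through a list of 35 genes, of 19057 genes named on the array. The list is one of gene symbols, put together with earlier results of these data known, and where several probes report a gene the probe with the highest mean signal was used. The list holds 25 identity genes, which cells of the microglia and macrophage lineage make, and 10 lysosomal and activation genes. Some identity genes, such as Cd52, Cd53 and Laptm5, are genes of leukocytes at large and not particular to that lineage. The lysosomal and activation genes code for lysosomal enzymes and for proteins that phagocytes make in larger amounts when they take up debris or lipid. A probe was annotated for 34 of the 35, and Cd68, a lysosomal membrane protein of macrophages, had none.

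The series holds 12 arrays, 4 each of NdpKO;Ptch+/- MB, Ptch+/- MB and wild-type (WT) GNPs. Ptch+/- mice carry 1 functional copy of the Hedgehog receptor gene Ptch and develop cerebellar tumors of the Sonic hedgehog class, and NdpKO mice also lack Ndp, the X-linked gene for Norrin, a secreted ligand of the receptor Frizzled4 on endothelial cells. GNPs, the cells from which these tumors arise, came from cerebella of postnatal day 6 and were enriched on a percoll gradient and by pre-plating, whereas the MBs were taken as tissue from sick animals whose ages the labels do not give. The labels give a mixed strain background for the NdpKO;Ptch+/- tumors and C57Bl/6 for the other 8 samples, whereas the study's methods describe mutants and controls bred in 1 cohort. On the labels as given, strain and Ndp genotype cannot be told apart. Both Ndp and Xist were under the background limit on every array, which left no check of genotype or sex in these values. By the study's methods all NdpKO;Ptch+/- mice are male and controls are of either sex, so sex may differ with Ndp genotype too. The study also reports a shorter mean time to tumor in NdpKO;Ptch+/- mice than in their Ptch+/- littermates. The age of the tumor-bearing animals may therefore differ with Ndp genotype as well, and its part in the differences between the genotypes was not tested. Each tumor's title carries a number of its own, but the labels do not say what these numbers stand for or whether each tumor came from a separate mouse, so the p-values speak of the spread among arrays, which may be technical.

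Microglia are the resident macrophages of the brain, and in tumors they are joined by macrophages that enter from the blood and the brain borders. They sense their surroundings through surface receptors such as TREM2, CSF1R and P2RY12, signal through the adaptors DAP12 (Tyrobp) and the Fc receptor gamma chain (Fcer1g), make the 3 chains of complement C1q, and degrade what they engulf in lysosomes rich in cathepsins. When phagocytes are loaded with lipid or dying cells they make more galectin-3 (Lgals3), GPNMB and apolipoprotein E, so a list of this kind can show both how much phagocyte RNA a sample holds and what those cells make. In bulk samples such as these, fewer cells of a type and less RNA per cell cannot be told apart.

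All values are normalized log2 signals. They ran from 4.09 to 16.04 over the 45281 probes, with the same median, 4.15, on every array, and signals under 4.5 were treated as background. Between 31.8% and 32.5% of probes reached that limit on an array. The number of arrays limits the precision, and arrays of 1 group correlated with r between 0.984 and 0.996 over all probes. Zic1, a transcription factor of the granule lineage, was between 13.60 and 14.32 on all 12 arrays. Of 9 measured GNP genes including Zic1, 4 were lower and 1 higher in Ptch+/- MBs than in GNPs (limma adjusted p under 0.05). In NdpKO;Ptch+/- MBs 3 were lower and none was higher. Over all genes 10.9% were lower and 10.3% higher in Ptch+/- MBs, and 7.98% and 7.69% in NdpKO;Ptch+/- MBs. Of the 9 genes, 7 reached the background limit on 1 or more arrays. Their mean level was 9.80 to 10.1 in the NdpKO;Ptch+/- MBs, 9.25 to 10.2 in the Ptch+/- MBs and 10.9 to 11.1 in the GNPs. Of the 34 members with a probe, 28 reached the limit on 1 or more arrays, 20 identity and 8 lysosomal and activation genes, and 22 reached it on all 8 tumor arrays. The other 6 stayed under it on every array and carry no information on level, namely Spi1 (the transcription factor PU.1), Tmem119, Fcgr1, Ptprc (CD45), Itgam (CD11b) and Ctsd (cathepsin D).

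Sequences just upstream of the start site were available for 26 members from the RefSeq annotation of GRCm38.p6. The 250 upstream bases of C1qb, C1qc and Trem2 are shown as examples of the identity genes that were high in every tumor. Those of Lgals3 and Gpnmb are shown because these activation genes differed most between the tumor genotypes within their class. Capitals mark GAGGAA or its complement TTCCTC, the core that the myeloid factor PU.1 binds. C1qb lies on the minus strand at chr4:136886201-136886450, C1qc on the minus strand at chr4:136892915-136893164, Trem2 on the plus strand at chr17:48346151-48346400, Lgals3 on the plus strand at chr14:47373610-47373859 and Gpnmb on the plus strand at chr6:49036268-49036517.
C1qb: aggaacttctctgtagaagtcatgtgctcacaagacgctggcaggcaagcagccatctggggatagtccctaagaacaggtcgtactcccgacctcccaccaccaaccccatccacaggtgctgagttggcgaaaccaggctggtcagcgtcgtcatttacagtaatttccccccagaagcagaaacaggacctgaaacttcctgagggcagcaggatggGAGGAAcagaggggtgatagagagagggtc
C1qc: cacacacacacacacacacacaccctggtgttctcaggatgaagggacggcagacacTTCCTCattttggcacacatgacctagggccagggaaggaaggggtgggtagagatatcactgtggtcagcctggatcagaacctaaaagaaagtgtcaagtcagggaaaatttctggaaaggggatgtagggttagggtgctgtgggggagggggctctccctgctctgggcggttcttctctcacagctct
Trem2: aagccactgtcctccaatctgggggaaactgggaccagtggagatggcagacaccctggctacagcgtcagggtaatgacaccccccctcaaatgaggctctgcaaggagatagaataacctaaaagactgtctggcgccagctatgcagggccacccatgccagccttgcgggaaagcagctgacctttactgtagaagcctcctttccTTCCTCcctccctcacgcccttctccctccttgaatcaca
Lgals3: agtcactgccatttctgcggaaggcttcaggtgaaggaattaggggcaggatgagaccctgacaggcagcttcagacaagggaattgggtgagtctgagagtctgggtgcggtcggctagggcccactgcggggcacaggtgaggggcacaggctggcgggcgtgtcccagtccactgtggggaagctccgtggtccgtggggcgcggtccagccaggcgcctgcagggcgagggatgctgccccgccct
Gpnmb: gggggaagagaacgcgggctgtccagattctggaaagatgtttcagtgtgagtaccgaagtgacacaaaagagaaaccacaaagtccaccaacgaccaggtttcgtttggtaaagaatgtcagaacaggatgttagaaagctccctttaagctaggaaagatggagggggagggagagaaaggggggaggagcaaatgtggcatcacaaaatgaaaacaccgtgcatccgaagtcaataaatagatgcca

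In the full window of 300 bases, which adds the 50 bases after the start site, GAGGAA in either orientation was found in 14 of the 26 members, or 53.8%, and in 31.3% of 27025 genes. The 14 members were Aif1, Apoe, C1qb, C1qc, Cd53, Cd68, Ctss, Fcgr1, Fcgr3, Grn, Itgam, Laptm5, Ptprc and Trem2. Lyz2, Fcer1g and Mpeg1, identity genes that were also high in every tumor, had no match. Apoe, Cd68, Ctss and Grn belong to the lysosomal and activation class, so the sequences shown above do not compare the classes. The letters TCACGTGA, the palindromic core that lysosomal gene regulators of the TFEB family bind, were present in 1 member, Ctsd, and in 1.12% of genes. TCATGTGA or its complement TCACATGA, the related M-box, was present in Ctss and Grn and in 1.15% of genes. TGAGTCA or TGACTCA, the site of AP-1 factors, was present in Cd68 and Gpnmb, in the latter after the start site, and in 5.95% of genes. A match describes letters in a short window and is not a bound site. No promoter was in the table for C1qa, Cd14, Cd52, Csf1r, Ctsb, Gpr34, Spi1, Tmem119 and Tyrobp.

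**Figure D1:**
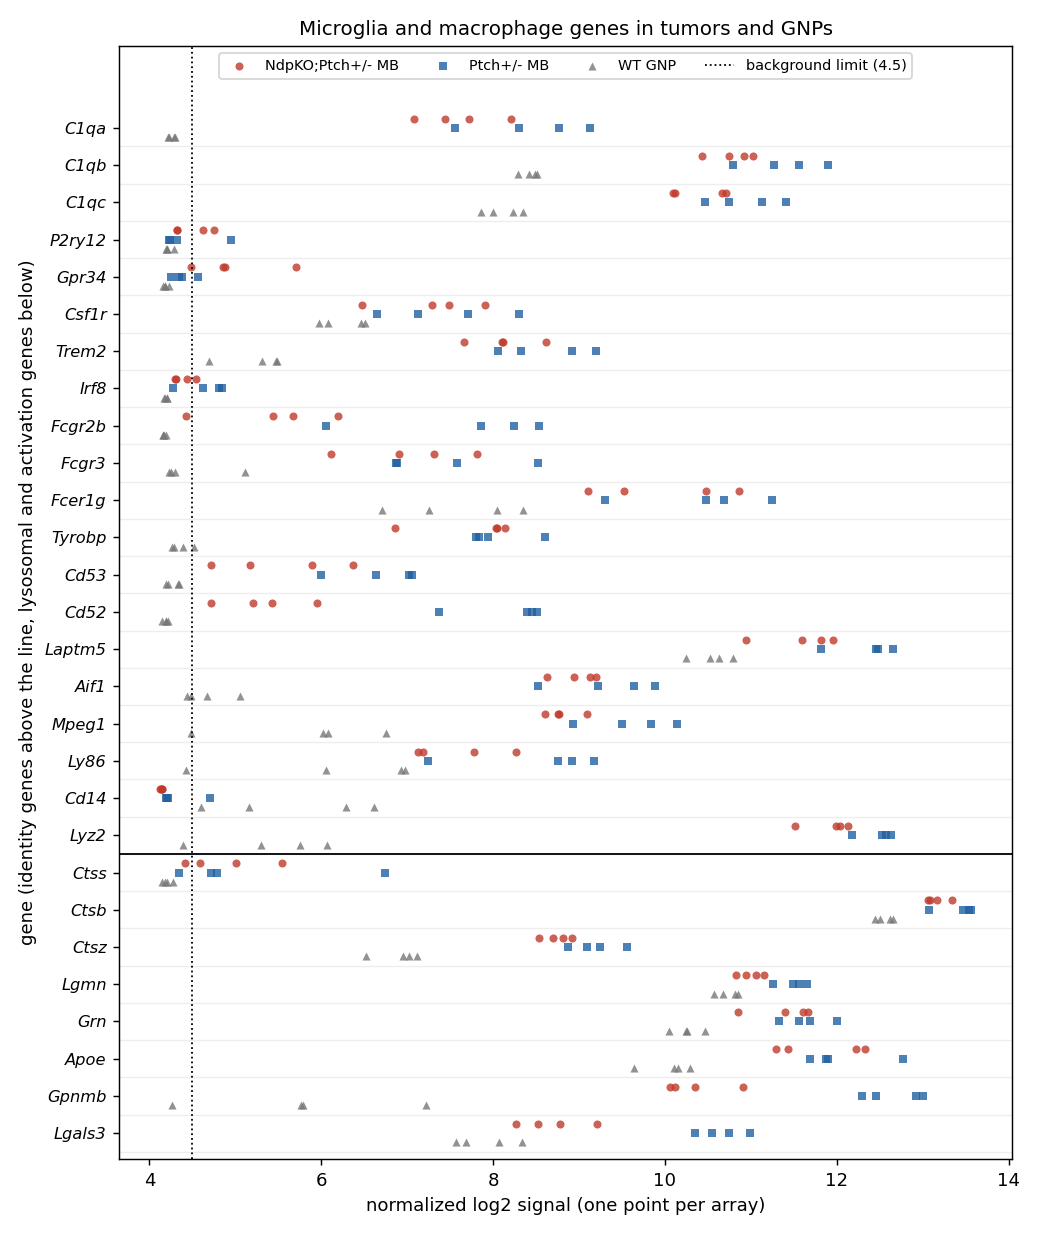
Normalized log2 signal (x axis) of the 28 genes that reached the background limit, 1 row per gene, with 1 point per array for NdpKO;Ptch+/- MBs (circles), Ptch+/- MBs (squares) and WT GNPs (triangles) and the limit of 4.5 dotted. Most tumor points lie to the right of the GNP points, those of Cd14 lie to the left, and the circles and squares are separated in Cd52, Lgals3 and Gpnmb by more than 1 log2 unit.

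The first question was how far tumors and their progenitors differ in these genes. In Ptch+/- MBs 24 of the 34 measured members were higher than in WT GNPs at a limma adjusted p under 0.05, 16 of 25 identity genes and 8 of 9 lysosomal and activation genes, while 10.3% of all genes, and 18.6% of the genes at or above background on 1 or more arrays, were called higher. In NdpKO;Ptch+/- MBs 19 were higher, 14 identity and 5 lysosomal and activation genes, against 7.69% of all genes and 14.4% of those above background. One identity gene, Cd14, was lower in both comparisons, where 10.9% and 7.98% of all genes, and 18% and 13.1% of those above background, were called lower. The median difference over the 28 members above background was 2.59 log2 units in Ptch+/- MBs and 1.38 in NdpKO;Ptch+/- MBs (2.59 and 1.31 with genes under background in a group set at their bound), beside medians of -0.00057 and 0.03 over all genes above background. Both comparisons use the same 4 GNP samples. Purified day 6 cells and tumor tissue also differ in age and preparation, and these cannot be told apart from tumor formation.

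The complement genes C1qa, C1qb and C1qc, neighbours on chromosome 4 that code for the chains of C1q, the protein that starts the classical complement cascade, were higher in both kinds of tumor. C1qb measured 10.92, 10.74, 10.43 and 11.02 in the NdpKO;Ptch+/- MBs, 10.79, 11.56, 11.27 and 11.90 in the Ptch+/- MBs and 8.48, 8.29, 8.51 and 8.42 in the GNPs. Every tumor was well above every GNP sample, and the tumor groups overlapped. The difference from GNPs was 2.96 log2 units (95% CI 2.47 to 3.44, limma adjusted p = 1.82e-05) in Ptch+/- MBs and 2.36 (95% CI 1.87 to 2.84, adjusted p = 0.000107) in NdpKO;Ptch+/- MBs. C1qc was higher by 2.83 and 2.28, with adjusted p = 3.52e-05 and 0.000198. C1qa was under background in all 4 GNP samples, at 4.21 to 4.29, and between 7.08 and 9.13 in the tumors, so it was at least 15.3-fold higher in Ptch+/- MBs and at least 8.64-fold higher in NdpKO;Ptch+/- MBs.

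The surface receptors were less uniform. Trem2, the lipid-sensing receptor that signals through DAP12, measured 8.12, 8.10, 7.66 and 8.62 in the NdpKO;Ptch+/- MBs, 8.06, 8.92, 8.32 and 9.19 in the Ptch+/- MBs and 5.48, 4.69, 5.47 and 5.31 in the GNPs. It was the receptor of this set called higher in both comparisons, by 3.39 (95% CI 2.72 to 4.05, limma adjusted p = 5.92e-05) and 2.89 (95% CI 2.22 to 3.55, adjusted p = 0.000231). Csf1r, the receptor for the survival factors CSF1 and IL-34, differed by 1.19 and 1.03 and was not called, with adjusted p = 0.0627 and 0.125, although all 4 Ptch+/- MBs lay above all GNP samples. P2ry12, Gpr34 and Tmem119 were near or under background. P2ry12, a purinergic receptor of resting microglia, reached the limit in 2 NdpKO;Ptch+/- MBs, at 4.75 and 4.62, and in 1 Ptch+/- MB, at 4.95. Gpr34, a lysophospholipid receptor, measured 4.88, 4.85, 4.49 and 5.70 in the NdpKO;Ptch+/- MBs, 4.25, 4.56, 4.34 and 4.38 in the Ptch+/- MBs and 4.15 to 4.23 in the GNPs. It was at least 1.39-fold higher than in GNPs in the NdpKO;Ptch+/- MBs (limma adjusted p = 0.0360).

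Irf8, a transcription factor of the myeloid lineage, was close to background throughout, at 4.44, 4.30, 4.29 and 4.54 in the NdpKO;Ptch+/- MBs, 4.27, 4.84, 4.81 and 4.62 in the Ptch+/- MBs and 4.16 to 4.20 in the GNPs. It was called higher in Ptch+/- MBs, at least 1.10-fold (limma adjusted p = 0.0237). Among the Fc receptors and their adaptors, Tyrobp measured 8.13, 8.04, 6.86 and 8.03 in the NdpKO;Ptch+/- MBs, 7.94, 7.84, 7.80 and 8.60 in the Ptch+/- MBs and 4.39, 4.27, 4.29 and 4.52 in the GNPs. All 8 tumors were at least 2 log2 units above the GNPs, with differences of 3.68 and 3.40 (limma adjusted p = 2.64e-05 and 6.30e-05). Fcer1g was higher by 2.84 and 2.41 (adjusted p = 0.00592 and 0.0174), and Fcgr3, an activating receptor for immune complexes, by 2.99 and 2.56 (adjusted p = 0.00161 and 0.00509). Fcgr2b, the inhibitory Fc receptor, was under background in the GNPs and at least 9.02-fold higher in Ptch+/- MBs (adjusted p = 0.00157). In the NdpKO;Ptch+/- MBs its signal was at least 1.91 times that of the GNPs and it was not called (adjusted p = 0.170).

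Among the leukocyte and myeloid membrane genes were the widest differences of all members. Lyz2, the macrophage lysozyme, measured 12.13, 11.995, 11.51 and 12.04 in the NdpKO;Ptch+/- MBs, 12.18, 12.63, 12.53 and 12.57 in the Ptch+/- MBs and 6.06, 4.40, 5.30 and 5.76 in the GNPs. It was 137-fold higher in Ptch+/- MBs (limma adjusted p = 6.55e-07) and 93.1-fold higher in NdpKO;Ptch+/- MBs (adjusted p = 1.38e-06), and the lowest tumor was more than 5 log2 units above the highest GNP sample. Aif1, which codes for IBA1, an actin-binding protein widely used to stain microglia, measured 8.94, 9.12, 8.63 and 9.19 in the NdpKO;Ptch+/- MBs, 8.52, 9.64, 9.22 and 9.88 in the Ptch+/- MBs and 5.06, 4.43, 4.49 and 4.67 in the GNPs. The differences were 4.65 (95% CI 4.03 to 5.28, adjusted p = 5.48e-06) and 4.31 (95% CI 3.68 to 4.94, adjusted p = 1.07e-05), without overlap. A second probe of each gene was under background in all GNP samples, and it was at least 72.5-fold and at least 53.1-fold higher for Lyz2 and at least 15.8-fold and at least 13.1-fold higher for Aif1.

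Mpeg1, the pore-forming perforin-2 of macrophages, was higher by 3.77 and 2.97 (limma adjusted p = 0.00035 and 0.00190). Laptm5, a lysosomal membrane protein of leukocytes, was higher by 1.80 and 1.03 (adjusted p = 0.000902 and 0.0228). Cd53, a leukocyte tetraspanin, was at least 4.53-fold and at least 2.05-fold higher (adjusted p = 0.00132 and 0.0440), and Cd52, a small glycoprotein anchored on leukocytes, at least 12.8-fold and at least 1.77-fold higher (adjusted p = 2.02e-05 and 0.0332). Ly86 (MD-1), a partner of the receptor RP105, was higher in Ptch+/- MBs by 2.43 (adjusted p = 0.0243) and differed by 1.49 in NdpKO;Ptch+/- MBs (adjusted p = 0.168). Cd14, the co-receptor for bacterial lipopolysaccharide, ran the other way. It measured 5.16, 4.60, 6.61 and 6.29 in the GNPs, 4.12 to 4.15 in the NdpKO;Ptch+/- MBs, and 4.21, 4.20, 4.19 and 4.70 in the Ptch+/- MBs. It was at least 2.25-fold lower in NdpKO;Ptch+/- MBs (adjusted p = 0.0291), and it fell by 1.34 log2 units in Ptch+/- MBs (adjusted p = 0.0405), where 1 tumor overlapped the GNPs.

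Of the lysosomal enzymes, Ctsz (cathepsin Z), a carboxypeptidase, measured 8.92, 8.70, 8.53 and 8.81 in the NdpKO;Ptch+/- MBs, 8.87, 9.56, 9.09 and 9.25 in the Ptch+/- MBs and 7.11, 6.52, 6.95 and 7.02 in the GNPs, differences of 1.84 and 2.29 in that order (limma adjusted p = 0.000107 and 1.88e-05). Ctsb (cathepsin B) was higher by 0.85 in Ptch+/- MBs and 0.61 in NdpKO;Ptch+/- MBs (adjusted p = 0.000627 and 0.00581), and Grn, which codes for the lysosomal protein progranulin, by 1.39 and 1.12 (adjusted p = 0.00108 and 0.00476). Both were bright in the GNPs too, Ctsb between 12.45 and 12.65 and Grn between 10.05 and 10.47. Lgmn (legumain), an asparaginyl endopeptidase, was higher in Ptch+/- MBs by 0.76 (adjusted p = 0.000756) and differed by 0.27 in NdpKO;Ptch+/- MBs (adjusted p = 0.127). Ctss (cathepsin S) was under background in the GNPs and measured 4.42 to 5.54 in the NdpKO;Ptch+/- MBs and 4.35 to 6.74 in the Ptch+/- MBs, and it was not called in either comparison (adjusted p = 0.424 and 0.222). Ctsd counted among the 8 called higher in Ptch+/- MBs, by 0.07 log2 units, although every value was under the background limit.

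Of the activation genes, Apoe, which carries lipid between cells, measured 12.22, 11.44, 11.30 and 12.33 in the NdpKO;Ptch+/- MBs, 11.69, 11.87, 11.90 and 12.77 in the Ptch+/- MBs and 10.10, 9.64, 10.30 and 10.15 in the GNPs, and was higher by 1.77 and 2.01 in that order (limma adjusted p = 0.00445 and 0.00165). Astrocytes also make Apoe. Of 12 measured astrocyte genes 4 were higher and 1 was lower in Ptch+/- MBs, and 3 were higher and 1 was lower in NdpKO;Ptch+/- MBs. Over all genes 10.3% were higher and 10.9% lower in Ptch+/- MBs, and 7.69% and 7.98% in NdpKO;Ptch+/- MBs. Over the 11 above background the differences ran from -1.32 to 2.02 and from -3.67 to 1.98. The part of other cells in the Apoe signal was not tested. Gpnmb, a glycoprotein of phagocytes loaded with debris, was 120-fold higher in Ptch+/- MBs (adjusted p = 2.20e-05) and 24.3-fold higher in NdpKO;Ptch+/- MBs (adjusted p = 0.000404). Lgals3, a sugar-binding lectin of activated macrophages, was higher in Ptch+/- MBs by 2.74 (95% CI 2.21 to 3.27, adjusted p = 5.38e-05) and differed by 0.78 in NdpKO;Ptch+/- MBs (95% CI 0.25 to 1.31, adjusted p = 0.0631).

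The calls near the threshold were lost in some of the alternative fits. Without NdpKO;Ptch+/- replicate 1, 9 identity genes and not 14 were called higher than in GNPs, and the adjusted p was 0.0695 for Gpr34, 0.0541 for Fcer1g, 0.117 for Cd53, 0.0841 for Cd52 and 0.0681 for Laptm5. Over 19 alternatives, 12 of them with an array left out, these calls held in 8, 18, 7, 11 and 14 in that order. In Ptch+/- MBs the calls of Irf8 and Ly86 held in 11 and 13. Irf8 was lost without Ptch+/- replicate 2 or 3 or without any 1 of the GNP arrays, and Ly86 without Ptch+/- replicate 2, 3 or 4 or GNP replicate 3. The lower Cd14 held in 12 for the NdpKO;Ptch+/- and 8 for the Ptch+/- MBs, and without GNP replicate 3 its adjusted p was 0.0566 and 0.0827. The other called members above background, 14 in NdpKO;Ptch+/- and 21 in Ptch+/- MBs, were called in every alternative. Of the members above background that were not called, Csf1r was called in Ptch+/- MBs in 7 alternatives, and in NdpKO;Ptch+/- MBs Lgals3 was called in 5 and Fcgr2b in 1, the fit without Ptch+/- replicate 1.

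**Figure D2:**
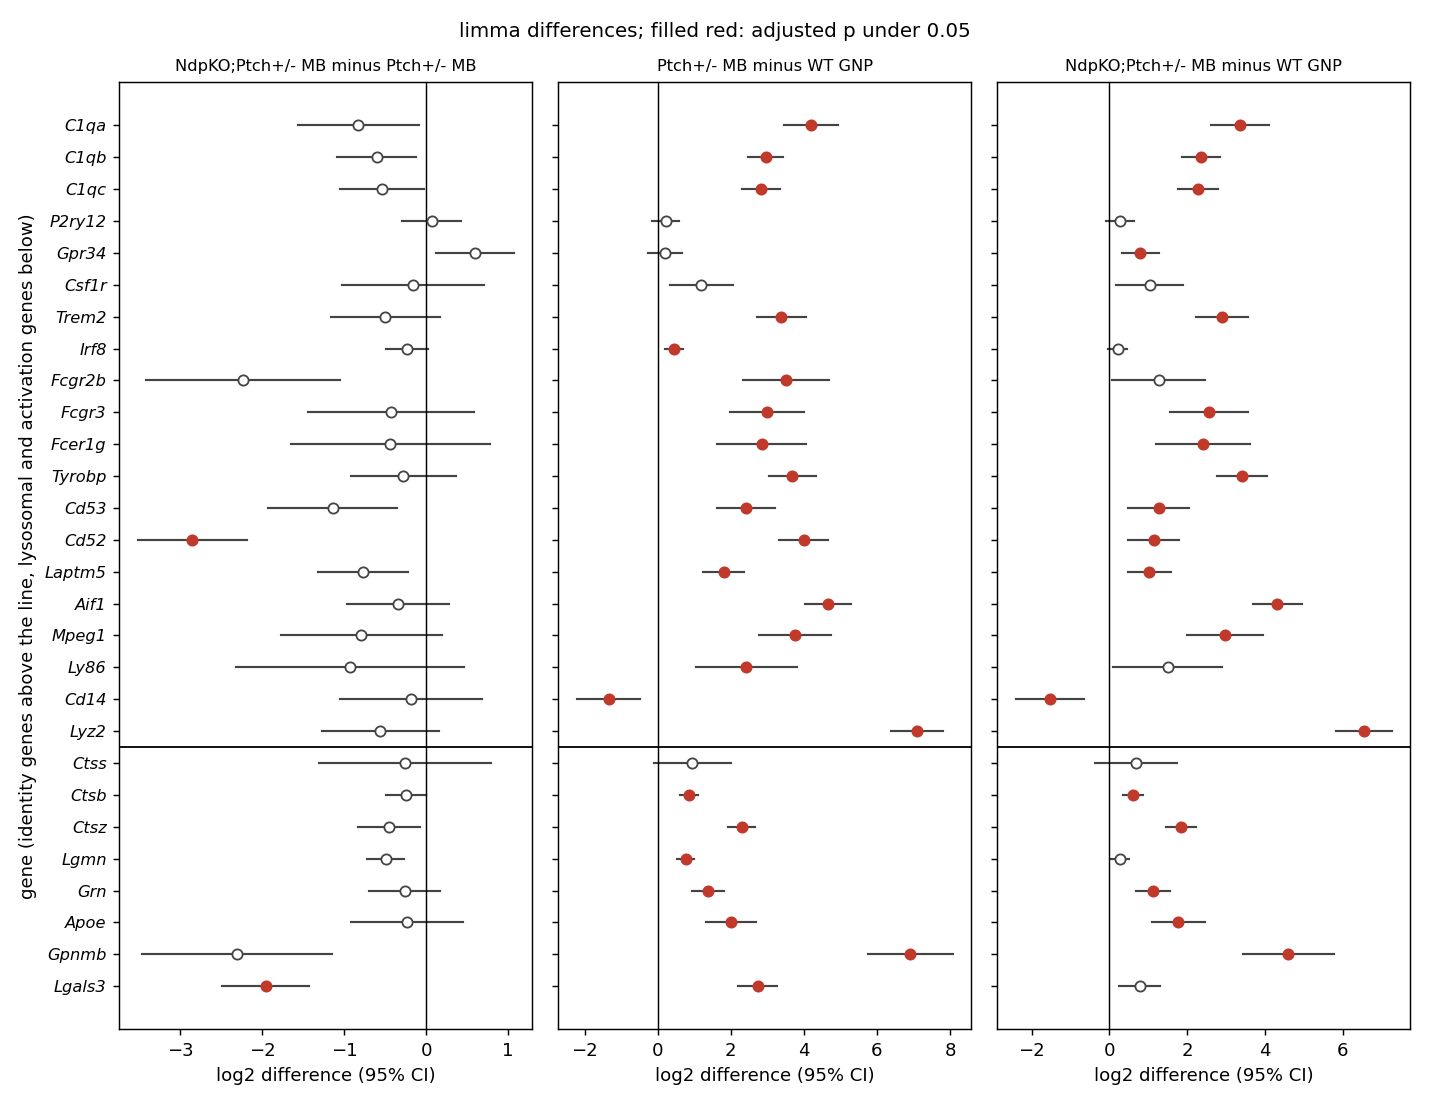
Log2 differences (x axis, dots) with their 95% confidence intervals (lines) from the limma fit for the 28 genes above background, in 3 panels for NdpKO;Ptch+/- MB minus Ptch+/- MB, Ptch+/- MB minus WT GNP and NdpKO;Ptch+/- MB minus WT GNP. Filled dots have an adjusted p under 0.05, which holds in the first panel for Cd52 and Lgals3 and in the other panels for most identity genes. For genes under background in the GNPs the dots are fitted values, which understate the difference.

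The second question was whether tumors without Ndp differ from Ptch+/- tumors. Between the genotypes 2 of the 34 measured members were called, Cd52 among the identity genes and Lgals3 among the activation genes. Both were lower in NdpKO;Ptch+/- MBs, and none was higher. At an unadjusted limma p under 0.05, 1 member was higher and 12 were lower, beside 1624 higher and 1508 lower of all 19057 genes. Over all genes 1.26% were called lower and 0.808% higher, and over the genes above background 2.42% and 1.54%. Of the 28 members above background 26 had values below 0, where 47.5% of the genes above background and 47.8% of all genes did, with a median of -0.47. The median was -0.52 over the 20 identity genes and -0.36 over the 8 lysosomal and activation genes.

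Cd52 measured 5.42, 4.72, 5.95 and 5.21 in the NdpKO;Ptch+/- MBs and 7.37, 8.45, 8.39 and 8.51 in the Ptch+/- MBs. The highest tumor without Ndp was 1.41 log2 units below the lowest Ptch+/- MB, and both groups were above the GNPs, which read 4.15 to 4.22. The gene fell by 2.85 log2 units (95% CI -3.52 to -2.19, limma adjusted p = 0.00341), a 7.23-fold lower signal. A second probe of Cd52 was under background everywhere.

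Lgals3 measured 8.52, 8.78, 9.21 and 8.27 in the NdpKO;Ptch+/- MBs, 10.35, 10.55, 10.99 and 10.74 in the Ptch+/- MBs and 8.34, 8.07, 7.57 and 7.68 in the GNPs. The tumors without Ndp sat just above the GNPs, 1 of them within the GNP range, and the Ptch+/- MBs stood apart from both. The gene fell by 1.96 log2 units (95% CI -2.49 to -1.43, limma adjusted p = 0.00661), or 3.90-fold. With the GNP arrays out of the fit, the adjusted p was 0.0590 for Cd52 and 0.0548 for Lgals3.

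Gpnmb measured 10.91, 10.06, 10.35 and 10.12 in the NdpKO;Ptch+/- MBs, 12.29, 12.46, 12.92 and 13.005 in the Ptch+/- MBs and 7.22, 4.27, 5.78 and 5.77 in the GNPs. The tumor groups were 1.38 log2 units apart at their closest, yet the difference of -2.31 (95% CI -3.47 to -1.15) missed the threshold at a limma adjusted p of 0.0712. The spread was estimated over all 3 groups, and among the GNPs the SD was 1.21, beside 0.39 and 0.35 in the tumor groups. With the GNP arrays out of the fit the adjusted p was 0.0433. A second, dimmer probe of Gpnmb read 6.36, 4.25, 4.72 and 4.64 in the NdpKO;Ptch+/- MBs and 8.27, 8.39, 8.84 and 9.18 in the Ptch+/- MBs, a difference of -3.68 (95% CI -4.59 to -2.77, adjusted p = 0.0044). The other 2 probes of the gene were under background.

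Lgmn measured 11.16, 10.82, 10.95 and 11.06 in the NdpKO;Ptch+/- MBs and 11.26, 11.49, 11.65 and 11.56 in the Ptch+/- MBs. The groups did not overlap, by 0.11 log2 units, and the difference of -0.49 (95% CI -0.72 to -0.27) narrowly missed the threshold, with a limma adjusted p of 0.0518, and 0.0309 without Ptch+/- replicate 1. Fcgr2b measured 6.20, 5.44, 4.43 and 5.67 in the NdpKO;Ptch+/- MBs and 6.06, 7.86, 8.24 and 8.53 in the Ptch+/- MBs. Ptch+/- replicate 1 lay within the range of the other group, and the difference was -2.24 (95% CI -3.43 to -1.06, adjusted p = 0.0851, and 0.0123 without that array). Other probes of Fcgr2b were under background.

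Without overlap between the genotypes, and lower in the tumors without Ndp, were 6 members, Cd52, Lgals3, Gpnmb, Lgmn, Lyz2 and Cd14, where 4.72% of all genes and 7.59% of those above background had that pattern and 4.68% and 7.42% had the opposite one. Each of the 6 had an exact permutation p of 0.0286 (two-sided), the smallest that 4 tumors against 4 can give. That value follows from the lack of overlap by which the 6 were picked, and it adds nothing to it. For Lyz2 the gap between the groups was 0.05 log2 units, and for Cd14 all NdpKO;Ptch+/- values were under background.

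**Figure D3:**
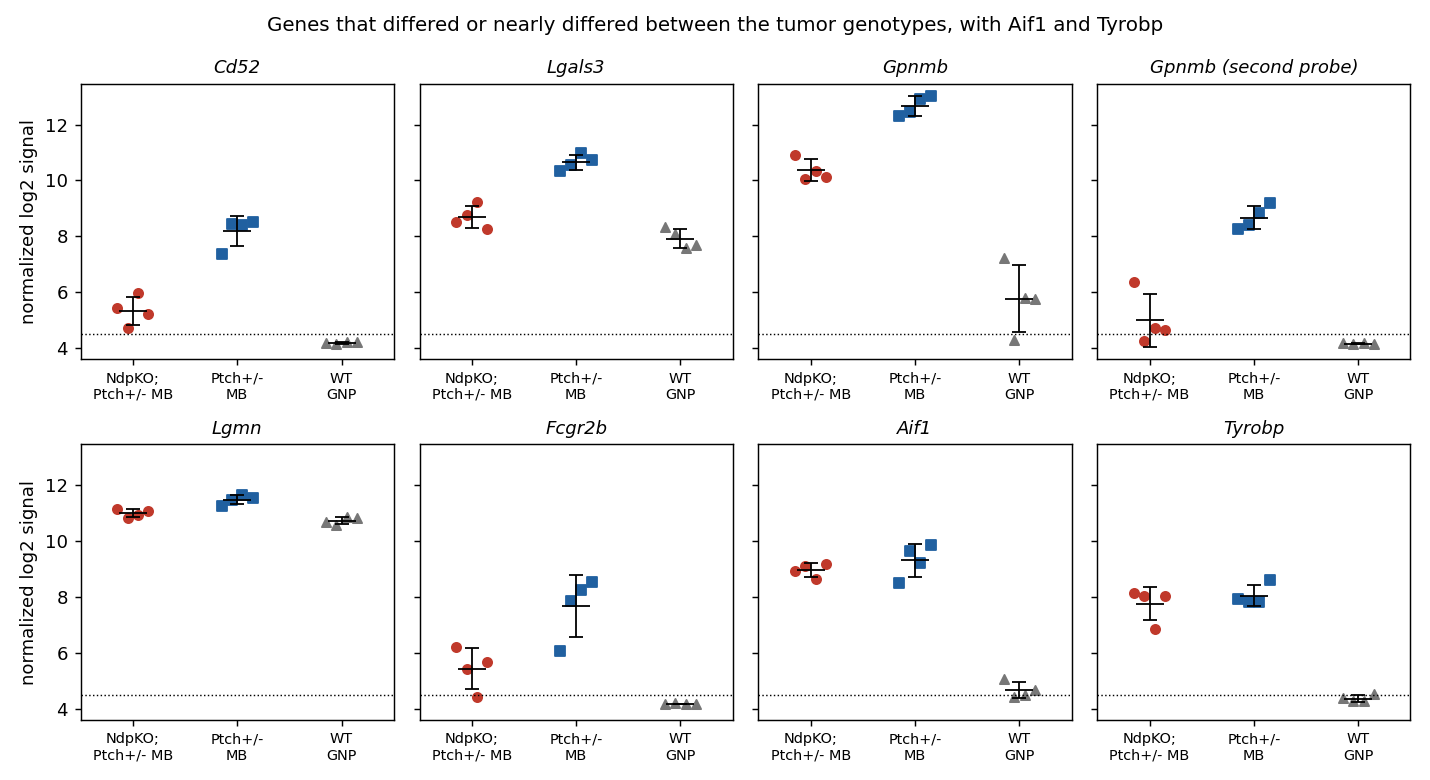
Normalized log2 signal (y axis) on each array, by group, for Cd52, Lgals3, 2 probes of Gpnmb, Lgmn, Fcgr2b, Aif1 and Tyrobp, with bars for the mean and SD of the 4 arrays and the background limit of 4.5 dotted. The tumor groups are apart in Cd52, Lgals3 and both Gpnmb panels and overlap in Aif1 and Tyrobp.

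The remaining identity genes above background had intervals that include both small and moderate differences between the genotypes. C1qa differed by -0.83 (95% CI -1.56 to -0.09, limma adjusted p = 0.311), C1qb by -0.60 (95% CI -1.08 to -0.12, adjusted p = 0.254) and C1qc by -0.54 (95% CI -1.06 to -0.03, adjusted p = 0.349). For Aif1 the difference was -0.34 (95% CI -0.97 to 0.28), for Tyrobp -0.28 (95% CI -0.92 to 0.36), for Trem2 -0.50 (95% CI -1.17 to 0.17) and for Csf1r -0.16 (95% CI -1.02 to 0.70), with adjusted p between 0.547 and 0.931. Cd53, at -1.14 (95% CI -1.93 to -0.35), Laptm5, at -0.77 (95% CI -1.32 to -0.22), and Mpeg1, at -0.80 (95% CI -1.78 to 0.19), were lower in value, with adjusted p = 0.181, 0.197 and 0.504. Ly86 and Lyz2 differed by -0.94 and -0.56, and Fcer1g, Fcgr3, Irf8 and Cd14 by -0.44, -0.43, -0.24 and -0.19, none of them called. The 2 members with values above 0 were Gpr34, at 0.60 (95% CI 0.13 to 1.07, adjusted p = 0.245), and P2ry12, at 0.07 (95% CI -0.30 to 0.43, adjusted p = 0.935). Among the lysosomal genes Ctsz differed by -0.46 (95% CI -0.83 to -0.08, adjusted p = 0.270), and Ctsb, Grn, Ctss and Apoe by -0.25, -0.26, -0.26 and -0.24, none of them called.

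The tumors also differed among themselves, and most members did so together. Over the 22 members above background in all tumors, Ptch+/- replicate 4 was the highest tumor for 15 and Ptch+/- replicate 1 the lowest of its group for 21. NdpKO;Ptch+/- replicate 3 was the lowest tumor for 12 and replicate 2 for 7, and no NdpKO;Ptch+/- tumor was the highest for any of the 22. The mean signal over the 15 identity genes among them was 8.67, 8.56, 8.26 and 8.83 in the NdpKO;Ptch+/- MBs and 8.65, 9.52, 9.33 and 9.81 in the Ptch+/- MBs, so that Ptch+/- replicate 1 lay among the tumors without Ndp and the other 3 above them. The mean over the 7 lysosomal and activation genes was 10.95, 10.53, 10.69 and 10.77 in the NdpKO;Ptch+/- MBs and 11.27, 11.59, 11.65 and 11.84 in the Ptch+/- MBs, where the groups did not overlap. Without Gpnmb and Lgals3 the mean over the other 5 was 11.45, 10.97, 11.05 and 11.41 in the NdpKO;Ptch+/- MBs and 11.24, 11.63, 11.53 and 11.83 in the Ptch+/- MBs, and Ptch+/- replicate 1 lay among the tumors without Ndp here too.

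To set the activation genes beside the identity genes of the same tumor, each gene was expressed relative to the mean of the identity genes on its array, leaving the gene itself out. On this relative log2 scale Cd52 was 2.26 units and Gpnmb 1.56 units lower in NdpKO;Ptch+/- MBs, both without overlap, and Lgals3 was 1.22 units lower with overlapping groups. The other 19 genes lay between -0.43 (Cd53) and 0.63 (Csf1r). Aif1 and C1qb were higher without overlap on this scale, by 0.43 and 0.15, and Lgmn was at 0.25. The mean holds Cd52 for every gene but Cd52 itself. Its low signal in NdpKO;Ptch+/- MBs lowers that mean and so raises the other genes, which makes small positive values hard to read. These values are a description and were not tested.

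**Figure D4:**
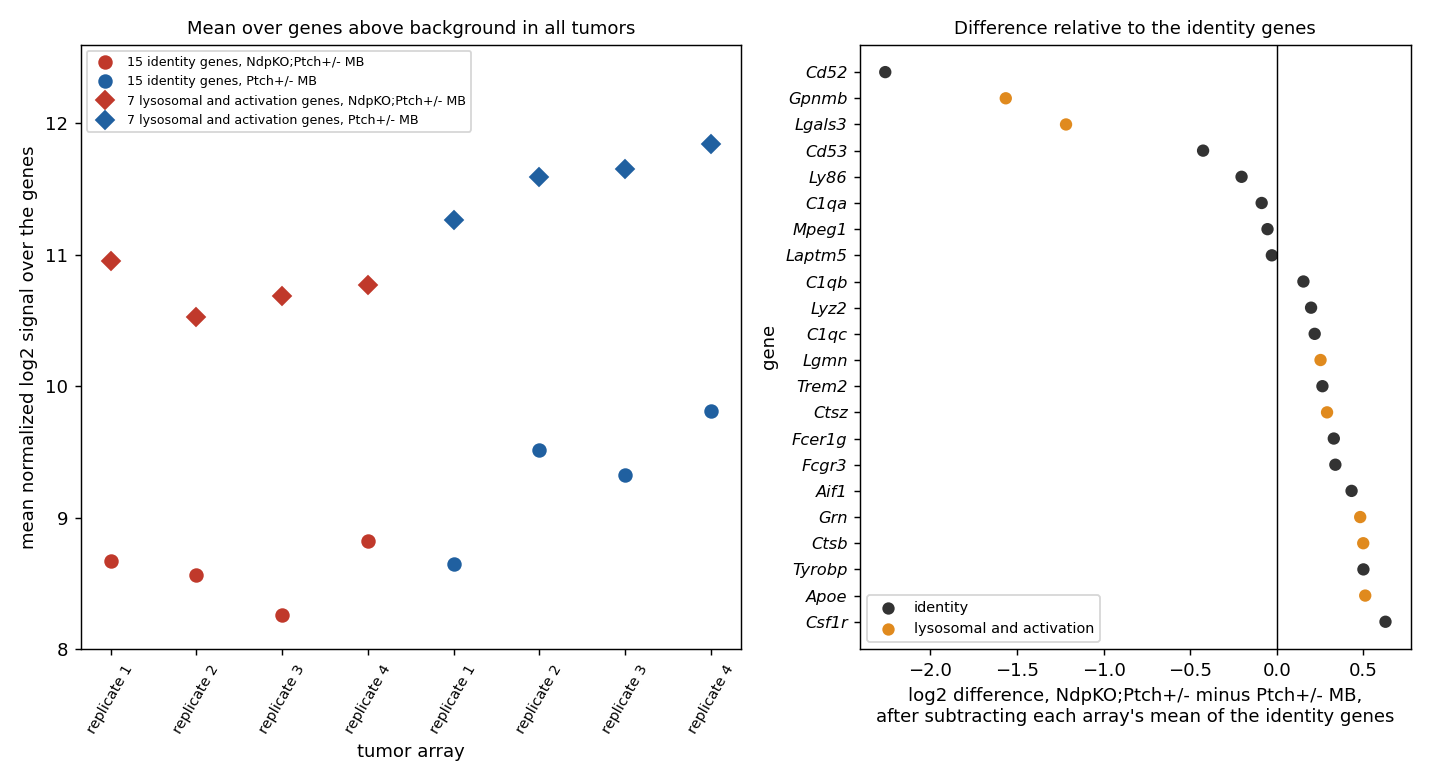
Left, mean normalized log2 signal (y axis) per tumor array over 15 identity genes (circles) and 7 lysosomal and activation genes (diamonds) that were above background in all tumors. Right, the difference between NdpKO;Ptch+/- and Ptch+/- MBs (x axis, log2) for each of the 22 genes relative to the mean of the identity genes, where Cd52, Gpnmb and Lgals3 lie at -2.26, -1.56 and -1.22 and the others between -0.43 and 0.63.

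Further lists of related genes gave context, to be read beside the 10.3% and 7.69% of all genes that were higher than in GNPs in Ptch+/- and NdpKO;Ptch+/- MBs and the 1.26% that were lower and 0.808% higher between the genotypes. Of 15 measured further microglial genes 7 were higher than in GNPs in Ptch+/- MBs and 5 in NdpKO;Ptch+/- MBs, and none was called between the genotypes. They include P2ry6, a purinergic receptor for uridine nucleotides (3.66 and 2.61), and the Fc receptor-like Fcrls (2.22 and 1.77). Cx3cr1, the fractalkine receptor, was named after its values were seen. It measured 8.23, 8.07, 8.56 and 8.34 in the NdpKO;Ptch+/- MBs, 7.79, 8.84, 8.51 and 8.83 in the Ptch+/- MBs and 6.86, 4.64, 5.83 and 6.54 in the GNPs, and the genotypes differed by -0.19 (limma adjusted p = 0.93). Of 32 further pan-myeloid genes 14 were higher and none was lower in Ptch+/- MBs than in GNPs. Only 10 of the 14 were at or above background on 1 or more arrays. In NdpKO;Ptch+/- MBs 6 were higher than in GNPs and 1 was lower, where 7.98% of all genes were lower. Between the genotypes 1 was called, Cd84, a homophilic receptor of the SLAM family, at -1.33 (adjusted p = 0.017), a share near that of all genes. All 17 above background had values below 0, with a median of -0.67, where 47.5% of genes above background did. Their mean level was 5.98 to 6.10 in the NdpKO;Ptch+/- MBs and 6.18 to 7.35 in the Ptch+/- MBs. Csf1 and Il34, the ligands of CSF1R, were under background on every array.

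Of 15 measured genes of the program that microglia switch on in neurodegeneration, 2 were lower in NdpKO;Ptch+/- MBs and none was higher than in Ptch+/- MBs. Cd74, the invariant chain of MHC class II, measured 4.14 to 4.39 in the NdpKO;Ptch+/- MBs, under background, and 7.66, 9.15, 8.70 and 9.65 in the Ptch+/- MBs, at least 19.5-fold lower in the former (limma adjusted p = 0.000495). Clec7a, the receptor dectin-1 for fungal glucans, measured 4.25 to 4.33 in the former and 4.77, 6.33, 6.19 and 6.57 in the latter, at least 2.76-fold lower (adjusted p = 0.0384). Of 31 general lysosome genes 1 was called, Ctsh (cathepsin H), at -0.97 (adjusted p = 0.038), a share near the 2.42% of genes above background that were called lower, and the median over the 26 above background was -0.13. Of 13 other complement genes 3 were lower, C4b, C4a and Cd59a, at -3.03, -2.97 and -2.63 (adjusted p = 0.012, 0.014 and 0.014). C4a and C4b are near-identical copies whose probes may not tell them apart.

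Levels of markers of other cells varied among the tumors as well, and their part in the results above was not tested. Between the genotypes none of 12 neutrophil and 6 red blood cell genes was called. Of 12 endothelial genes 2 were called higher in NdpKO;Ptch+/- MBs and of 12 astrocyte genes 1 lower, beside 0.808% and 1.26% of all genes. The neutrophil gene S100a8 was at 4.63, 6.78, 5.12 and 9.23 in the Ptch+/- MBs and at 4.13 to 4.48, under background, in the NdpKO;Ptch+/- MBs. The neutrophil gene S100a9 reached the limit in Ptch+/- replicate 4 alone, at 6.62. Over the 4 neutrophil genes above background, of 12 measured, the mean level was 4.17 to 4.25 in the NdpKO;Ptch+/- and 4.31 to 6.45 in the Ptch+/- MBs. Over 10 endothelial genes it was 7.79 to 8.64 and 6.99 to 7.85, and over 3 haemoglobin genes 10.2 to 12.9 and 6.13 to 10.7. Over 11 astrocyte genes the ranges were 8.68 to 9.42 and 8.90 to 10.3, with the top value in Ptch+/- replicate 4. No B cell gene of 6 measured and 1 T and NK cell gene of 12, Thy1, which neurons also make, reached background.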

How the data were processed

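Per the labels, total RNA was extracted with Trizol and cleaned on RNeasy columns. The authors hybridised biotinylated cRNA to Illumina MouseWG-6 v2.0 BeadChips, and normalized the arrays with neqc of limma, so the deposited values are quantile-normalized log2 signals of 45281 probes on 12 arrays. The version of limma they used was not given in the sources used here. Probes were named from the platform annotation, in which 34885 have 1 gene symbol, 18 have several and 10378 have none. Of a gene's probes, the one with the highest mean over all arrays was used. A single group-means model over the 12 arrays was fitted with lmFit and eBayes of limma 3.58.1 in R 4.3.3, its p-values were adjusted by Benjamini-Hochberg over all probes, and genes were called at an adjusted p under 0.05. The limma steps were tested on simulated data. A signal under 4.5 was taken as background, and where a gene was under it on all arrays of the dimmer group the fold change is a bound against 4.5. That limit, the members and the lists of further genes were chosen with earlier results of these data known. All 35 members are reported. Of the other lists, up to 4 genes with the smallest p between the tumor genotypes and up to 2 with the highest mean signal could be named, along with those said to be chosen after their values were seen and those that a count of 5 or fewer refers to. Groups came from the labels, and in the main fit replicate numbers only name arrays. Chip and hybridization batch were not given in the sources used here. Promoters came from RefSeq on GRCm38.p6. Alternatives tried were a fit without each array in turn, only the groups compared, a replicate block, array weights, a robust prior that follows intensity, median centring, the mean of a gene's probes, and the brighter probes alone.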

Additional observations from a re-analysis of the deposited data

Results flagged for a closer look

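In 6 of the 75 groups of 4 arrays examined for the members above background, 1 array lay far from the other 3, by a gap past Dixon's critical value for 4 samples at the 95% level. Chance flags about 1 in 20 such groups. For Tyrobp, NdpKO;Ptch+/- replicate 3 read 6.86 beside 8.03 to 8.13, and Ptch+/- replicate 4 read 8.60 beside 7.80 to 7.94. P2ry12 read 4.95 in Ptch+/- replicate 4 beside 4.23 to 4.32, all of the latter under background. Cd14 read 4.70 in the same tumor beside 4.19 to 4.21. Cd52 read 7.37 in Ptch+/- replicate 1 beside 8.39 to 8.51, still above every NdpKO;Ptch+/- MB. Fcgr3 read 5.12 in GNP replicate 3 beside 4.23 to 4.30.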

How the results depend on the processing

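Between the tumor genotypes, Cd52 and Lgals3 were called in 18 of 19 alternatives, all but the fit of only the 2 groups compared. Gpnmb was called in 6, Lgmn in 4 and Fcgr2b in 3, and no other member above background in any. The number of identity genes called lower, 1 in the report, was 2 with dim probes left out or an intensity trend, 0 with only the 2 groups compared, and 1 to 2 with an array left out. The number of lysosomal and activation genes called lower, 1 in the report, was 3 with the mean of a gene's probes, an intensity trend or dim probes left out, and 1 to 2 with an array left out. Over all probes 240 were called higher and 384 lower. The numbers were 500 and 596 with dim probes left out, 442 and 609 with an intensity trend, 22 and 42 with only the 2 groups compared, and 124 to 239 and 234 to 384 with an array left out. Against GNPs the count of identity genes called lower went from 1 to 0 with only the 2 groups compared, for both kinds of tumor, and was 0 to 1 with an array left out, and the count higher in NdpKO;Ptch+/- MBs was 9 to 14.

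The deviations of same-numbered arrays correlated at -0.178 to 0.107, so no pairing by number was seen. With 4 arrays per group these values cannot decide whether a pairing exists. With a replicate block 74 probes were called higher and 149 lower between the genotypes, and Cd14, Irf8 and Ly86 in Ptch+/- MBs and Gpr34, Cd53 and Cd52 in NdpKO;Ptch+/- MBs were no longer called against GNPs (adjusted p = 0.0532 to 0.0773), leaving 0 identity genes lower in Ptch+/- MBs, while Csf1r was called there (adjusted p = 0.0280). Differences near 0 between the genotypes changed sign with an array left out, and their ranges were -0.018 to 0.24 for P2ry12, -0.43 to 0.13 for Csf1r, -0.40 to 0.022 for Tyrobp, -0.53 to 0.27 for Ctss and -0.41 to 0.0021 for Apoe. P2ry12 was below 0 without NdpKO;Ptch+/- replicate 1 (-0.018), Ptch+/- replicate 1 (-0.0035) or Ptch+/- replicate 2 (-0.00096), Csf1r above 0 without NdpKO;Ptch+/- replicate 2 (0.11) or Ptch+/- replicate 4 (0.13), Tyrobp above 0 without NdpKO;Ptch+/- replicate 3, and Ctss and Apoe above 0 without Ptch+/- replicate 4. The cause of these changes was not tested. Genes near background, such as P2ry12, Gpr34, Irf8 and Ctss, have understated differences.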

Other observations

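Genes known from macrophages at the brain borders were mixed. Of 12 measured, 3 were higher and 2 lower than in GNPs in Ptch+/- MBs, and 3 higher and 1 lower in NdpKO;Ptch+/- MBs. Of those called, 4 and 2 in that order were at or above background on 1 or more arrays. Over all genes 10.3% were higher and 10.9% lower in Ptch+/- MBs, and 7.69% and 7.98% in NdpKO;Ptch+/- MBs. None of the 12 was called between the genotypes. Ms4a7, a tetraspan membrane protein of such macrophages, was under background in all GNP samples, at 4.13 to 4.15, and measured 9.37, 9.69, 8.58 and 9.58 in the NdpKO;Ptch+/- MBs and 8.90, 9.54, 9.19 and 9.83 in the Ptch+/- MBs. The tumor groups overlapped and differed by -0.06 log2 units (95% CI -0.63 to 0.51), and the limma adjusted p against GNPs was 1.54e-06 and 1.26e-06 in that order. Mgl2, a C-type lectin chosen here after its values were seen, was higher than in GNPs by 3.66 and 3.64. Lyve1 and Pf4, chosen in the same way, had no values above the GNP range in either kind of tumor, with Pf4 at 4.37 to 6.10 in the NdpKO;Ptch+/- MBs, 4.18 to 4.47 in the Ptch+/- MBs and 4.81 to 6.74 in the GNPs.

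Igf1, a growth factor that microglia and other cells make, was also named after its values were seen. It measured 6.92, 7.10, 6.86 and 7.56 in the NdpKO;Ptch+/- MBs and 6.96, 7.26, 7.20 and 6.95 in the Ptch+/- MBs, and 5.26, 4.19, 4.23 and 4.19 in the GNPs. The genotypes differed by 0.02 log2 units (95% CI -0.55 to 0.58), and they were higher than GNPs by 2.64 and 2.62 (limma adjusted p = 0.000140 and 0.000105).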
